A study of Mus musculus with 4 samples.

Results

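The genes described here are the 8 core genes of Desert hedgehog signalling in the testis, taken by their names from the deposited table of 55820 loci. They are *Dhh* for the ligand, *Ptch1*, *Smo* and *Hhip* for the receptor, the signal transducer and a decoy receptor, *Sufu* for the cytoplasmic inhibitor, and *Gli1*, *Gli2* and *Gli3* for the transcription factors. All 8 were in the table and all 8 passed the filter on low counts. RNA sequencing was performed on whole testes of male C57BL/6J mice at P10 (postnatal day 10), with 2 libraries from control mice and 2 from Mps1sKO mice. In Mps1sKO mice, *Stra8*-Cre recombines the floxed *Mps1* gene (symbol *Ttk*) in germ cells from the early spermatogonia onwards, so somatic cells keep an intact gene. The genotype of the control mice beyond the word control, the number of mice behind each library and whether the libraries of a genotype came from separate mice are not stated in the sources used here, and p-values then measure only the spread between these libraries.

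Hedgehog ligands are secreted proteins that bind the membrane protein Patched. Unbound Patched holds the membrane protein Smoothened inactive, and ligand binding lifts this block at the primary cilium. Smoothened then releases the GLI factors from SUFU and from processing into repressors, and the GLI factors switch on target genes, among them *Ptch1*, *Gli1* and *Hhip*, which makes the pathway report on itself. In the testis the ligand is Desert hedgehog, made by Sertoli cells inside the seminiferous tubules, while the receiving cells are the Leydig cell lineage and the peritubular cells outside them. The pathway is known for its part in the formation of Leydig cells and of the tubule wall.

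The counts of the 4 libraries summed to between 23311689 and 28607746. The targeted gene, *Ttk*, was at 27.9 and 32.6 CPM (counts scaled to a common library size with edgeR's TMM factors) in control and at 13.03 and 12.2 CPM in Mps1sKO libraries. Its log2 fold change, always Mps1sKO relative to control, was −1.26, with an adjusted p of 0.0461 by edgeR. The 20 Sertoli cell markers summed to 9028 and 8885 CPM in control and 11060.0 and 10864.5 CPM in Mps1sKO testes. *Clu* alone gave 2900 and 3586 CPM of this in control and 4399 and 3319 CPM in Mps1sKO testes, and its groups overlapped. *Rhox5* was at 1 count over all 4 libraries. The sums of 16 germ cell markers were 1802 and 2134 CPM in control against 1639 and 1279.9 CPM in Mps1sKO testes. Because whole testes were sequenced, fewer cells of a type and less RNA per cell cannot be told apart from these counts alone. By immunostaining at P10, the paper counted fewer DDX4-positive germ cells per tubule in Mps1sKO than in control testes.

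The RefSeq table of promoters on GRCm38.p6 holds 7 of the 8 genes, and *Gli1* was not matched. Each window runs from 250 bases before to 50 bases after the annotated start of the gene. Shown are the promoter of *Dhh*, the gene with the largest difference among the 8, that of *Ptch1*, a textbook target of the GLI factors, and that of *Gli2*, the 1 window with a match to the GLI core. Capitals mark a GC box, GGGCGG on either strand, or the GLI core, ACCACCC on either strand.
*Dhh*, chr15:98898491-98898790, minus strand: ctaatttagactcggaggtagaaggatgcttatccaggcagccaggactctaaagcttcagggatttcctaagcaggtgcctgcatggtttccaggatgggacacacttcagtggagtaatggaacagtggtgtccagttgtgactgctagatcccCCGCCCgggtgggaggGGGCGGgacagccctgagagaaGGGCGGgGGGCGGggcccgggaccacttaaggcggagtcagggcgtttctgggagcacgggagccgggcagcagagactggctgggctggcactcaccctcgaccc
*Ptch1*, chr13:63565686-63565985, minus strand: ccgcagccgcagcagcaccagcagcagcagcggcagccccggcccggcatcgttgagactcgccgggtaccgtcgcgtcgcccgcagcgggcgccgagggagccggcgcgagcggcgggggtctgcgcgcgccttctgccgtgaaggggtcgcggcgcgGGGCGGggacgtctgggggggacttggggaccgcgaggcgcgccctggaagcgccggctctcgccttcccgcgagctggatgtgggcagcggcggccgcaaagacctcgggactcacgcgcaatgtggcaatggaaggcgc
*Gli2*, chr1:119053570-119053869, minus strand: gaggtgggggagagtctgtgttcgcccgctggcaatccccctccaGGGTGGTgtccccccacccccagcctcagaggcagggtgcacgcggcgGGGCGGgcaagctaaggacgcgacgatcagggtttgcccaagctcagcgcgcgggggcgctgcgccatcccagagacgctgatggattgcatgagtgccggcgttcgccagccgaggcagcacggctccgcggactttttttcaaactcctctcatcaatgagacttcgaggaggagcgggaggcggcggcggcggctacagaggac

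The *Dhh* window held 4 GC boxes, the *Ptch1* window 1 and the *Gli2* window 1. The GC box is frequent, with a match in 35.7% of the 32851 promoter windows of all genes. The GLI core was found in 4.61% of them and the full GLI site, GACCACCCA, which contains the core, in 0.253%. In *Gli2* the core begins 205 bases before the start and reads in the reverse orientation. None of the 7 windows held the full site, which says only that these letters are not in these 300 bases. The GC content was 61.7% for *Dhh*, 76.3% for *Ptch1* and 67.3% for *Gli2*, against a median of 52.7% over all windows. The *Ptch1* window lies inside the span of the annotated gene, which has 10 annotated transcripts.

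Levels of different genes were compared per length, as FPKM, the counts that the authors divided by gene length and library size. The length is that of all annotated exons together, 14185 bases over 10 transcripts for *Ptch1* and 5621 over 2 for *Smo*. It can exceed the length of the RNA present, so the order of genes with close FPKM depends on it. In control testes the order from high to low was *Dhh*, *Smo*, *Ptch1*, *Gli1*, *Hhip*, *Sufu*, *Gli3* and *Gli2*, and in Mps1sKO testes it was the same. The upper 4 genes stood apart from the lower 4, since *Gli1* had 3.86 times the mean FPKM of *Hhip* in control and 3.96 times in Mps1sKO testes. In control testes the mean FPKM was 27.1 ± 4.04 (SD, n = 2) for *Dhh*, 24.0 ± 3.03 (SD, n = 2) for *Smo*, 17.1 ± 0.485 (SD, n = 2) for *Ptch1* and 14.2 ± 0.668 (SD, n = 2) for *Gli1*. The control libraries of *Dhh* and *Smo* overlapped in FPKM, though *Dhh* lay above *Smo* within each library. Those of *Hhip* and *Sufu* overlapped as well and changed order between the control libraries, so this pair cannot be ordered in control testes. The remaining neighbours did not overlap within a genotype. The mean FPKM of the other 4 genes in control testes was 3.69 ± 0.401 (SD, n = 2) for *Hhip*, 3.60 ± 0.274 (SD, n = 2) for *Sufu*, 3.24 ± 0.0973 (SD, n = 2) for *Gli3* and 2.45 ± 0.0598 (SD, n = 2) for *Gli2*. *Gli1*, itself a target of the pathway, had the highest FPKM of the 3 GLI genes.

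**Figure D1:**
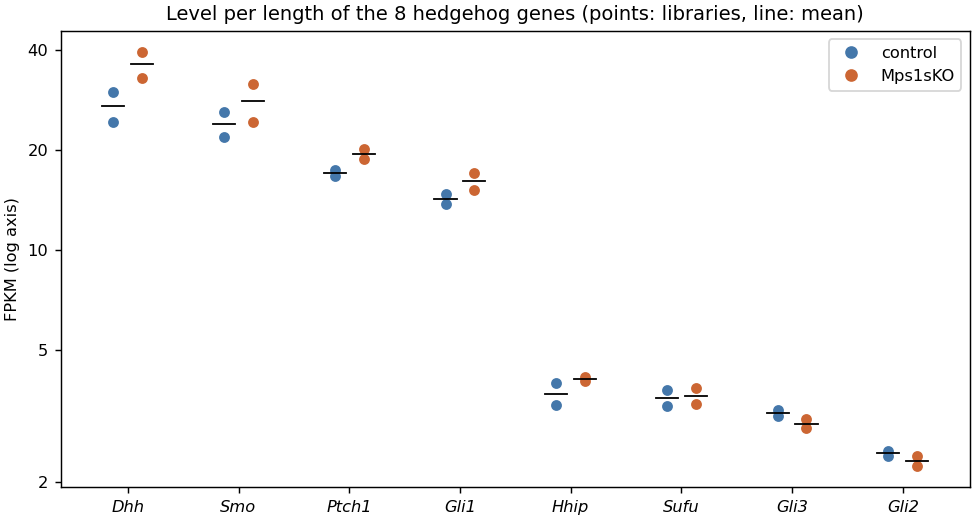
FPKM of the 8 hedgehog genes on a log axis, with a point for each of the 2 control and 2 Mps1sKO libraries and a line at the mean of each genotype. *Dhh*, *Smo*, *Ptch1* and *Gli1* lie at 13.8 FPKM or above in every library, and the other 4 genes lie at 4.14 FPKM or below.

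Between the genotypes, 6 of the 8 genes had a higher fitted level in Mps1sKO testes and 2 a lower one. The median log2 fold change of the 8 was 0.16, beside 0.0003 for all 20561 loci tested, of which 50.1% had a log2 fold change above 0. At an adjusted p below 0.05, 0 of the 8 passed with edgeR, DESeq2 or limma-voom, where edgeR called 0.0292% of all loci. At an unadjusted p below 0.05, 1 of the 8 passed with each of the 3 tools, and it was *Dhh*, where edgeR called 9.3% of all loci. For 6 of the 8 genes the groups did not overlap, 4 with both Mps1sKO libraries above both control libraries and 2 with both below. The same held for 41.4% of all loci tested, 20.3% above and 21.1% below. An exact permutation test of 2 against 2 libraries cannot go below p = 0.333, and every p printed here is from a model of all loci.

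**Figure D2:**
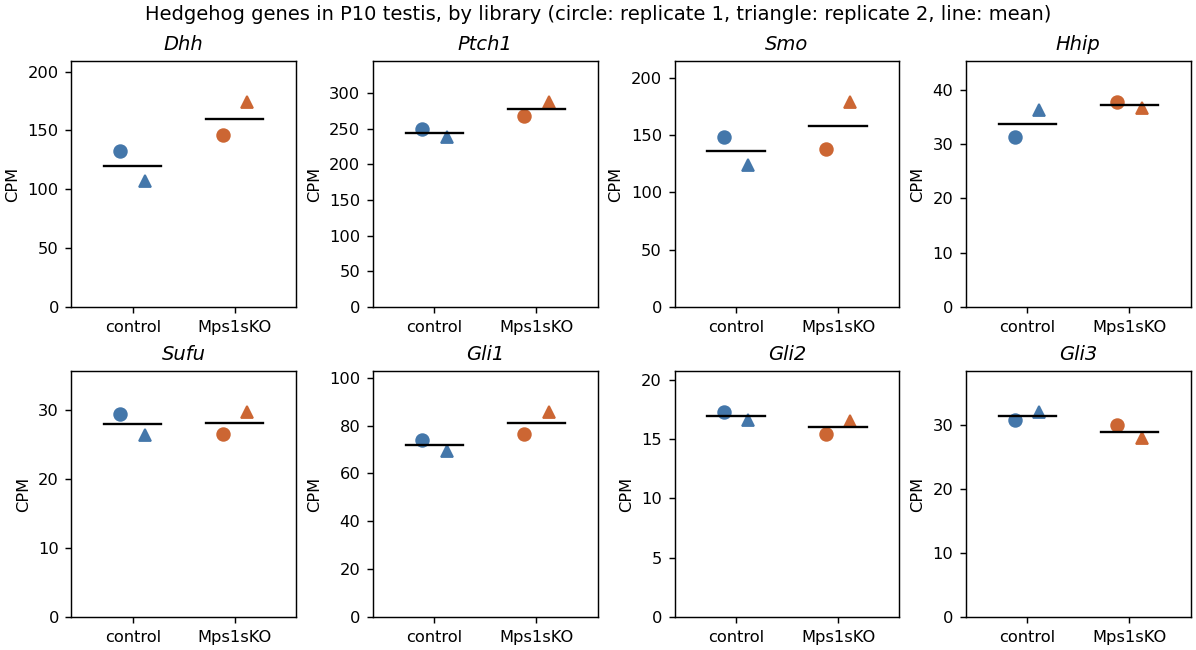
Level of each hedgehog gene in TMM-scaled CPM in the 2 control and 2 Mps1sKO libraries, with circles for replicate 1, triangles for replicate 2 and a line at the mean. Both Mps1sKO libraries lie above both controls for *Dhh*, *Ptch1*, *Hhip* and *Gli1* and below them for *Gli2* and *Gli3*, while *Smo* and *Sufu* overlap.

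*Dhh* (ENSMUSG00000023000), on chromosome 15 from 98891152 to 98898540 on GRCm38, encodes the ligand. It was counted at 133 and 107 CPM in control testes and at 146 and 174 CPM in Mps1sKO testes. Both Mps1sKO libraries lay above both control libraries, with control replicate 2 the lowest and Mps1sKO replicate 2 the highest. The means were 120 ± 18.1 CPM in control and 160 ± 19.9 CPM in Mps1sKO testes (SD, n = 2 each). The fitted difference was 1.33-fold with a 95% interval of 1.08 to 1.65 (log2 fold change 0.42, standard error 0.13, unadjusted p = 0.0145, adjusted p = 0.497 from edgeR). Of all loci tested, 5.27% had a higher log2 fold change. Without control replicate 2 the log2 fold change of *Dhh* was 0.27 (unadjusted p = 0.104 from edgeR), and without Mps1sKO replicate 2 it was 0.28 (unadjusted p = 0.0535 from edgeR), so the unadjusted threshold was passed only with both of these libraries in the fit.

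*Dhh* also varied within a genotype. Control replicate 2 lay 0.31 below control replicate 1 on the log2 CPM scale, and 5.3% of the 3566 loci with 0.5 to 2 times its level differed more between the control libraries. The Mps1sKO libraries of *Dhh* differed by 0.25 on the same scale, which 17.7% of those loci exceeded. *Dhh* shares exon sequence with its neighbours, since 1107 of its 4399 exonic bases (25.2%) also lie in exons of other genes. *Rhebl1*, which encodes a small GTPase and lies on the same strand, shares 546 of them and was counted 303 and 310 times in control and 230 and 292 times in Mps1sKO libraries. The antisense gene *Gm49442* shares 1107 and was counted 191 and 177 times in control and 172 and 256 times in Mps1sKO libraries. The strand setting of the counting is not given in the sources used here, so reads of *Dhh* and of its antisense partner cannot be told apart.

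The receptor gene *Ptch1* (ENSMUSG00000021466), on chromosome 13 from 63508328 to 63573598, had the most counts of the 8 genes, between 6217 and 7705 a library. It had 249 and 239 CPM in control and 268 and 288 CPM in Mps1sKO libraries, and the groups did not overlap. The fitted difference was 1.14-fold with a 95% interval of 0.988 to 1.31 (log2 fold change 0.19, standard error 0.088, unadjusted p = 0.0682, adjusted p = 0.563 from edgeR). *Ptch1* had the smallest standard error of the 8, and the upper end of its interval was 1.31-fold for these libraries.

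*Smo* (ENSMUSG00000001761), on chromosome 6 from 29735503 to 29761365, encodes the transducer Smoothened, whose activity is set by Patched and whose gene is not a textbook target. It had 148 and 124 CPM in control and 138 and 179 CPM in Mps1sKO libraries. The groups overlapped, since Mps1sKO replicate 1 lay below control replicate 1. The fitted difference was 1.16-fold with a 95% interval of 0.923 to 1.47 (adjusted p = 0.650 from edgeR). The Mps1sKO libraries of *Smo* differed from each other by 0.38 on the log2 CPM scale, the most of the 8 genes, and 5.55% of the 3439 loci of like level differed more. Its log2 fold change was 0.018 without Mps1sKO replicate 2 and 0.39 without Mps1sKO replicate 1.

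*Hhip* (ENSMUSG00000064325), on chromosome 8 from 79965851 to 80058006, encodes a membrane protein that binds hedgehog ligands and keeps them from Patched. It had 31.2 and 36.3 CPM in control and 37.8 and 36.7 CPM in Mps1sKO libraries. The groups did not overlap, but control replicate 2 and Mps1sKO replicate 2 were almost level. Its log2 fold change was 0.14 with a 95% interval of −0.12 to 0.40 (adjusted p = 0.706 from edgeR). It was 0.033 without control replicate 1 and 0.25 without control replicate 2.

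*Sufu* (ENSMUSG00000025231), on chromosome 19 from 46396896 to 46488804, encodes the protein that holds GLI factors in the cytoplasm. Its 4 values were 29.4 and 26.4 CPM in control and 26.6 and 29.7 CPM in Mps1sKO libraries, so the groups overlapped. Its log2 fold change was 0.013 with a 95% interval of −0.26 to 0.28 (adjusted p = 0.985 from edgeR), and it was −0.0085 when the libraries were scaled by their totals alone.

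*Gli1* (ENSMUSG00000025407), on chromosome 10 from 127329882 to 127341974, encodes the GLI factor that acts only as an activator and that depends on hedgehog signalling for its own expression. It had 74.2 and 69.2 CPM in control and 76.4 and 85.6 CPM in Mps1sKO libraries. The groups did not overlap, with control replicate 1 nearest to Mps1sKO replicate 1. The fitted difference was 1.13-fold with a 95% interval of 0.964 to 1.33 (log2 fold change 0.18, standard error 0.099, unadjusted p = 0.113, adjusted p = 0.608 from edgeR). It was 0.093 on the log2 scale without Mps1sKO replicate 2 and 0.26 without Mps1sKO replicate 1.

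The other GLI genes lay on the other side of 0. *Gli2* (ENSMUSG00000048402), on chromosome 1 from 118834132 to 119053619, encodes the main activator of the pathway in many tissues. It had 17.3 and 16.6 CPM in control and 15.5 and 16.5 CPM in Mps1sKO libraries, and its log2 fold change was −0.085 with a 95% interval of −0.37 to 0.20 (adjusted p = 0.848 from edgeR). *Gli3* (ENSMUSG00000021318), on chromosome 13 from 15463235 to 15730026, encodes the factor that acts mostly as a repressor when no ligand is bound. It had 30.7 and 32.0 CPM in control and 29.9 and 27.95 CPM in Mps1sKO libraries, and its log2 fold change was −0.12 with a 95% interval of −0.35 to 0.12 (adjusted p = 0.748 from edgeR). Both Mps1sKO libraries lay below both control libraries for *Gli2* and for *Gli3*.

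**Figure D3:**
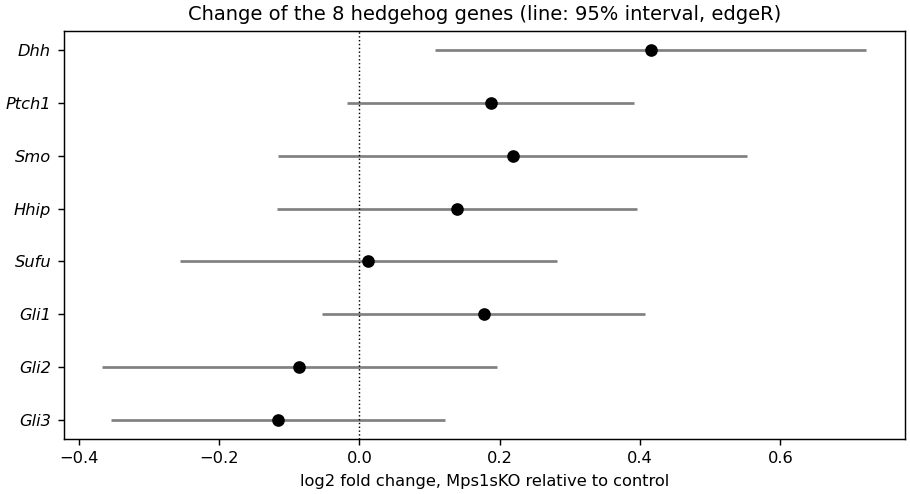
Log2 fold change of each of the 8 hedgehog genes, Mps1sKO relative to control, as a point with its 95% interval from edgeR. The interval of *Dhh*, 0.11 to 0.72, lies above 0, and those of the other 7 genes include 0.

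Within each library, *Gli1* was set against the other GLI genes per length. The ratio of *Gli1* to *Gli3* FPKM was 4.64 and 4.16 in control and 4.91 and 5.88 in Mps1sKO libraries. The ratio of *Gli1* to *Gli2* FPKM was 5.91 and 5.72 in control and 6.80 and 7.14 in Mps1sKO libraries. Neither ratio overlapped between the groups. That had to follow, since *Gli1* lay higher and *Gli2* and *Gli3* lower in both Mps1sKO libraries, so it adds nothing to the results for each gene. The ratio of *Gli2* to *Gli3* FPKM overlapped, at 0.785 and 0.727 against 0.721 and 0.824. The ratio of *Dhh* to *Ptch1* FPKM was 1.72 and 1.45 in control and 1.76 and 1.95 in Mps1sKO libraries. The groups did not overlap, but control replicate 1 and Mps1sKO replicate 1 were almost level. These ratios were chosen with the levels known and were not tested.

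The markers of the cell types that send and receive the signal were read in the same libraries. Of the 19 Sertoli cell markers tested, 17 had a higher fitted level in Mps1sKO testes. Their median log2 fold change was 0.26, and with edgeR 6 were higher at an unadjusted p below 0.05 (31.6%, beside 3.92% of all loci) and 0 had an adjusted p below 0.05. The highest in CPM, without regard to length, were *Clu*, which encodes the secreted chaperone clusterin, at 2900 and 3586 CPM in control and 4399 and 3319 CPM in Mps1sKO libraries, and *Aard*, at 1690.1 and 1421 CPM against 1728 and 2186 CPM. The level of *Dhh* relative to the mean log2 CPM of these 19 markers was −0.11 and −0.30 in control and −0.10 and −0.029 in Mps1sKO libraries. Relative to the markers, Mps1sKO replicate 1 was almost level with control replicate 1, and the mean difference was 0.14 on the log2 scale, beside 0.42 for the fitted log2 fold change. The part of the Sertoli cell markers in the result for *Dhh* was not tested.

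All 16 germ cell markers had a lower fitted level in Mps1sKO testes. Their median log2 fold change was −0.41, and with edgeR 13 were lower at an unadjusted p below 0.05 (81.2%, beside 5.37% of all loci) and 0 had an adjusted p below 0.05. The library with the highest summed germ cell CPM, control replicate 2, had the lowest *Dhh*, and the library with the lowest, Mps1sKO replicate 2, had the highest *Dhh*. The order of the 4 libraries was also reversed between germ cell markers and *Ptch1* and *Gli1*, and *Gli3* followed the order of the germ cell markers. The rest of the 8 genes, *Smo*, *Hhip*, *Sufu* and *Gli2*, took neither order. The share of all loci with either order was not counted. These are 4 libraries, and the part of the germ cell share in the results for these genes was not tested.

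On the receiving side, 9 of 12 Leydig cell markers had a higher fitted level in Mps1sKO testes. Their median log2 fold change was 0.20, and 1 of them, *Nr5a1*, had an unadjusted p below 0.05 (8.33%, beside 9.3% of all loci). The largest change of the 12 was that of *Star*, at a log2 fold change of −0.66. It had 96.0 and 150 CPM in control and 102 and 54.1 CPM in Mps1sKO libraries, and 3 of the 12 markers were lower. They summed to 1314 and 1218 CPM in control and 1389 and 1335 CPM in Mps1sKO libraries, with no marker at 0. The highest in CPM, without regard to length, were *Hsd3b1*, a steroid dehydrogenase, at 280.5 and 218 CPM against 289 and 275 CPM, and the lipoprotein receptor gene *Scarb1*, at 220.3 and 182 CPM against 213 and 238 CPM. Relative to the mean log2 CPM of the 12 markers, *Ptch1*, *Gli1* and *Hhip* overlapped between the groups, with mean differences of 0.066, 0.055 and 0.024. Whole testes do not show which cells express a marker, so the values of this list, *Nr5a1* among them, may include RNA of other cell types.

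The 10 interstitial progenitor markers had a median log2 fold change of 0.12 and summed to 1113 and 1075 CPM in control and 1145 and 1231 CPM in Mps1sKO libraries. The highest of them in CPM, without regard to length, were *Pdgfra*, a growth factor receptor gene, at 346 and 354 CPM against 393 and 376 CPM, and *Dcn*, which encodes the matrix protein decorin, at 305 and 306 CPM against 301 and 336 CPM. Relative to these markers *Gli1* lay at 0.59 and 0.62 in control and at 0.73 and 0.65 in Mps1sKO libraries on the log2 scale, with no overlap, while *Ptch1* and *Hhip* overlapped. The 9 peritubular myoid markers had a median log2 fold change of −0.053, and 1 of them, *Smoc2*, had an unadjusted p below 0.05 (11.1%). The share over all loci was 9.3%. The 9 markers summed to 1568 and 1557 CPM against 1563 and 1521 CPM. Relative to them all 3 target genes lay higher in both Mps1sKO libraries, by 0.23 for *Ptch1*, 0.22 for *Gli1* and 0.19 for *Hhip* on average. The nearest libraries of *Hhip*, at −0.832 and −0.831, were almost equal. Each of the 3 genes lay higher by itself, and the mean log2 CPM of the myoid markers overlapped between the groups. The comparison therefore adds little to the results for each gene, and it was not tested. The share of all loci that lay higher relative to these markers was not counted.

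**Figure D4:**
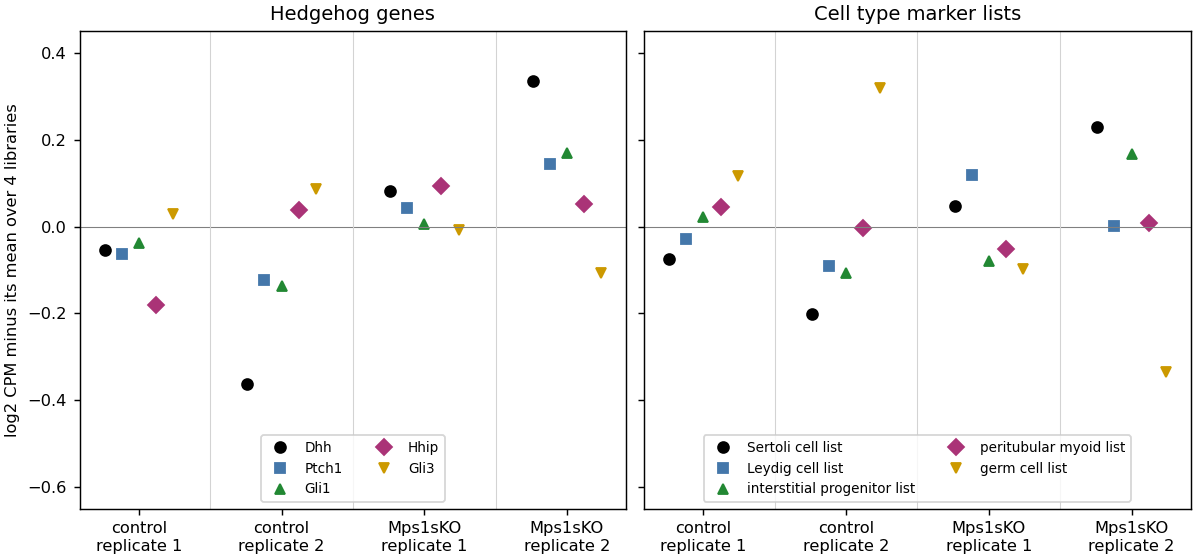
Log2 CPM of 5 hedgehog genes (left) and mean log2 CPM of 5 lists of cell type markers (right) in each library, both minus their own mean over the 4 libraries. *Dhh* runs from −0.36 in control replicate 2 to 0.34 in Mps1sKO replicate 2, the Sertoli cell list from −0.20 to 0.23 and the germ cell list from 0.32 to −0.34 in the same libraries.

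For the genes most alike in profile, each gene was centred on its own mean and compared with 153 listed genes over the 4 libraries, as a description. Among those with the smallest root mean square difference from *Dhh* were *Aard* at 0.058 and *Ctsl* at 0.064, against a median of 0.25. Both are on the Sertoli cell list. Those nearest to *Gli1* were *Evc2* at 0.0074, *Wt1* at 0.026 and *Ptch1* at 0.027, against a median of 0.15. *Evc2* encodes a ciliary protein that acts on Smoothened, and *Wt1* is on the Sertoli cell list.

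A further 55 genes of the pathway were listed by role, and 53 of them were tested, 28 with a higher and 25 with a lower fitted level in Mps1sKO testes. Their median log2 fold change was 0.013. With edgeR 0 had an adjusted p below 0.05, and 9 had an unadjusted p below 0.05, which is 17.0% of them beside 9.3% of all loci. By direction, 2 of the 53 were higher, where 3.92% of all loci were, and 7 were lower, where 5.37% of all loci were. The groups did not overlap for 21 of the 53 (39.6%), close to the share over all loci. *Efcab7*, with 6 and 2 counts in control against 2 and 3 counts in Mps1sKO libraries, and *Foxf2*, with 5 and 4 against 1 and 3 counts, did not reach the count minimum for testing.

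**Figure D5:**
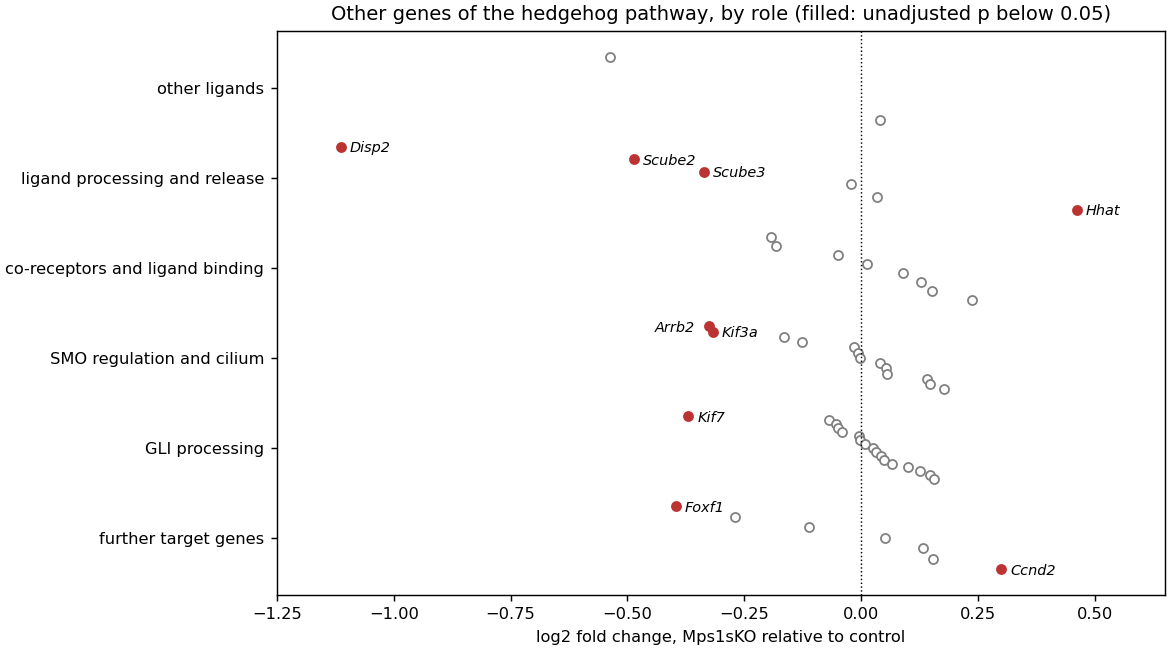
Log2 fold change, Mps1sKO relative to control, of the 53 tested genes of the wider pathway, in rows by role, with filled and named points for an unadjusted p below 0.05. Of the 9 filled points, 7 lie below 0 and 4 belong to the 6 genes of ligand processing and release.

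The other hedgehog ligands were near the limit of detection. *Shh* was counted 18 and 11 times in control and 6 and 12 times in Mps1sKO libraries, and *Ihh* 22 and 18 against 16 and 21 times. Per length *Dhh* was the main ligand in these testes, at a mean of 31.7 FPKM over the 4 libraries against 0.238 FPKM for *Ihh* and 0.153 FPKM for *Shh*.

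Of the 6 genes of ligand processing and release, 4 had an unadjusted p below 0.05, where 9.3% of all loci did. *Hhat*, which encodes the acyltransferase that attaches palmitate to hedgehog ligands, had 5.20 and 4.299 CPM in control and 6.39 and 6.68 CPM in Mps1sKO libraries (log2 fold change 0.46, adjusted p = 0.519 from edgeR). *Scube2*, whose secreted product helps to release the ligand, had 8.24 and 9.85 CPM against 6.04 and 6.87 CPM (log2 fold change −0.49, adjusted p = 0.505 from edgeR). Its relative *Scube3* had 36.0 and 38.6 CPM against 27.0 and 32.1 CPM (log2 fold change −0.34). For these 3 genes the groups did not overlap, which held for 41.4% of all loci. *Disp2* was counted 25 and 21 times in control and 8 and 11 times in Mps1sKO libraries, a log2 fold change of −1.11 with a standard error of 0.40. *Disp1*, which encodes the transporter that exports the ligand and which was the most abundant of the 6 per length, had 8.02 and 7.63 FPKM in control and 7.82 and 7.66 FPKM in Mps1sKO libraries, and its groups overlapped.

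Of the 8 genes of co-receptors and ligand binding, 0 had an unadjusted p below 0.05. The most abundant per length was *Gpc3*, whose glypican product binds hedgehog ligands at the cell surface, with 33.3 and 37.1 FPKM in control and 29.03 and 32.9 FPKM in Mps1sKO libraries (log2 fold change −0.19, adjusted p = 0.598 from edgeR).

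Among the 13 tested genes of Smoothened regulation and the cilium, 2 had an unadjusted p below 0.05 (15.4%, beside 9.3% of all loci). Both were lower, where 5.37% of all loci were. *Kif3a*, which encodes a motor subunit that builds the primary cilium, had 101 and 107 CPM in control and 85.3 and 81.2 CPM in Mps1sKO libraries (log2 fold change −0.32, standard error 0.089, unadjusted p = 0.00813, adjusted p = 0.494 from edgeR). *Arrb2*, which encodes an arrestin, had 59.9 and 54.2 CPM against 42.9 and 48.1 CPM (log2 fold change −0.33). Among the 17 genes of GLI processing, 1 had an unadjusted p below 0.05 (5.88%, beside 9.3% of all loci). This was *Kif7*, whose kinesin product organises the tip of the cilium. It had 37.2 and 35.3 CPM in control and 27.8 and 28.3 CPM in Mps1sKO libraries (log2 fold change −0.37, standard error 0.099, unadjusted p = 0.00632, adjusted p = 0.494 from edgeR). Of the exonic bases of *Kif7*, 20.3% also lie in exons of genes on the opposite strand, 877 bases with the antisense gene *9330171B17Rik*, at 10 to 20 counts a library, and 51 with *Ticrr*, a replication gene with a log2 fold change of −0.30. *Prkar1a*, which encodes a regulatory subunit of protein kinase A, was the most abundant of the 17 per length, with 85.1 and 82.0 FPKM against 91.3 and 88.7 FPKM and a log2 fold change of 0.10.

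Of the 8 further genes listed as targets, 7 were tested and 2 had an unadjusted p below 0.05, in opposite directions. Those 2 were 28.6% of the 7, beside 9.3% of all loci. *Foxf1*, which encodes a forkhead factor of mesenchyme, had 32.9 and 24.4 CPM in control and 22.3 and 21.3 CPM in Mps1sKO libraries (log2 fold change −0.40, adjusted p = 0.519 from edgeR). *Ccnd2*, which encodes cyclin D2 and was the most abundant of them per length, had 215 and 182 CPM against 254 and 235 CPM (log2 fold change 0.30, adjusted p = 0.507 from edgeR). The groups did not overlap for either gene, which held for 41.4% of all loci.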

How the data were processed

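RNA was extracted from whole testes, and NEBNext Ultra libraries were read as 150 bp pairs on an Illumina NovaSeq platform. The submitters' processing notes name HISAT2 2.0.5, featureCounts, DESeq2 1.16.1 and the build mm10, while strandedness and annotation are not given in the sources used here. The authors deposited raw counts for each gene and FPKM values, for which they divided by gene length and a scaled library size. Coordinates of the 8 genes matched GENCODE M21 on GRCm38.

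Groups follow the sample titles. The quasi-likelihood F test of edgeR 4.0.16 (R 4.3.3, two-sided, TMM scaling) was run on the 20561 of 55820 loci that filterByExpr kept, with Benjamini-Hochberg adjustment over all of them. The common biological coefficient of variation was 0.106. Alternatives were DESeq2 1.42.0, limma-voom (limma 3.58.1), other scalings, filters and dispersions, annotated genes only, a replicate block and each library left out. The fits were tested on simulated data with changes larger than those of the 8 genes. That test does not bear on changes of their size. The chi-square statistic between replicates, divided by its degrees of freedom, was 8.49 in control and 11.6 in Mps1sKO, above counting noise.

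The named genes are the 8 members, pathway genes with an unadjusted p below 0.05, the most abundant of each role, untested ones, and the 2 markers highest in CPM of the Sertoli, Leydig and interstitial progenitor lists, the 3 genes nearest in profile to *Dhh* and to *Gli1*, and *Ttk*. *Shh*, *Rhebl1*, *Gm49442*, *Ticrr*, *9330171B17Rik* and markers outside these lists were added after their values were seen. A gene that meets the rule is not reported here. The members and lists were chosen with earlier results of these data known.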

Additional observations from a re-analysis of the deposited data

How the results depend on the processing

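The log2 fold changes of 7 of the 8 hedgehog genes kept their direction under all 13 alternatives run, and that of *Sufu* turned with library size only (−0.0085), without control replicate 2 (−0.066) and without Mps1sKO replicate 2 (−0.070). With each library left out in turn *Sufu* lay between −0.070 and 0.092, where the lone library of a genotype is assumed to vary like the others. Without the filter on low counts, *Dhh* passed an adjusted p of 0.05 (log2 fold change 0.42, adjusted p = 0.0119 from edgeR, which ranged from 0.0119 to 1.00 over the alternatives), so 1 of the 8 genes was called, 2 had an unadjusted p below 0.05, and 390 loci were called in all against 6. DESeq2 called 37 loci. With a library left out, the genes with an unadjusted p below 0.05 numbered 0 to 4 of the 8, with 0 without control replicate 2 or Mps1sKO replicate 2 and 4 without Mps1sKO replicate 1. The 2 further pathway genes that were higher became 1 with DESeq2, 1 with the replicate block and 0 to 3 with a library left out. The 7 lower ones numbered 4 to 6 with a library left out and 5 to 8 under the other settings, apart from the crossed pairing.

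The replicate numbers are shared only as numbers, and deviations of same-numbered libraries correlated at −0.19 across loci. The replicate block gave 2 loci at an adjusted p below 0.05 in place of 6 and 1039 at an unadjusted p below 0.05 in place of 1912, and 0 and 1 of the 8 genes, as without it. The crossed pairing, chosen after seeing the data, gave 550 loci at an adjusted p below 0.05, 1 and 4 of the 8 genes at the adjusted and unadjusted thresholds, and 6 higher and 10 lower further pathway genes. Groups that did not overlap numbered 6 or 5 of the 8 genes under the other scalings. The precision is limited by 2 libraries a group.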

Other observations

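Cell types with no stated part in the signal were read from the same libraries, with 0 markers at an adjusted or an unadjusted p below 0.05 in each list with edgeR. The 10 macrophage markers, such as *Mrc1*, had a median log2 fold change of −0.076 and summed to 150.2 and 154 CPM in control and 156 and 142 CPM in Mps1sKO libraries. The 10 endothelial markers, such as *Cdh5*, had a median of 0.066 and summed to 178 and 176 CPM against 186 and 187 CPM. The 7 genes of blood and the adrenal cortex, such as the haemoglobin gene *Hba-a1*, had a median of 0.078 and summed to 83.6 and 73.8 CPM against 79.0 and 90.7 CPM.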
